A study of Rattus norvegicus with 63 samples.

Results

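Methamphetamine at 5 mg/kg was compared with saline in the prefrontal cortex (PFC) of drug-naive rats, on 6 of the series' 63 Affymetrix arrays. The 3 arrays labelled methamphetamine 5 mg/kg in the first cohort's prefrontal cortex were set against saline control arrays 1 to 3 of the same cohort and tissue. The labels name 5 such saline arrays, and the first 3 were taken because they share the hybridisation-control level of the methamphetamine arrays, a measured signal. All rats were male Wistar rats, supplied at 4 weeks of age and injected from 6 weeks. The first cohort was drug-naive: before any drug its rats had 7 days of saline, injected 2 times daily. In conditioned place preference, in which a drug is paired with one compartment of a box, the methamphetamine rats were given 5 mg/kg by intraperitoneal injection and the control rats saline. Methamphetamine rats then self-administered methamphetamine at 0.1 mg/kg per infusion, and control rats 0.1 ml of 0.9% saline per infusion. The study asked how repeated stimulant exposure alters gene expression in brain regions of reward, and brains were taken on the next day after the last self-administration session. The labels speak both of pooled RNA and of 2 to 3 rats per stimulant group, picked for the most robust self-administration, and 5 control rats, so n below counts arrays and the p-values measure the spread between arrays, which may be partly technical.

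Methamphetamine is a substrate of the dopamine and noradrenaline transporters and drives release of these transmitters from nerve endings. The PFC receives dopamine fibres from the ventral tegmental area and has mostly glutamatergic neurons, with inhibitory interneurons, oligodendrocytes, astrocytes, microglia and vessels between them. Bulk tissue reports the sum of these cells, so fewer cells of a type and less RNA per cell cannot be told apart in any value below.

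Values are log2 of the deposited MAS5 signal, and 8531 genes above a filter on dim signal were tested with limma, all 31 PFC arrays sharing 1 estimate of the spread. The threshold for passing was 0.05 on the Benjamini-Hochberg adjusted p. The mean signal of 24 cortical excitatory neuron markers was 10.72, 10.54 and 10.79 in methamphetamine and 10.63, 10.69 and 10.61 in saline arrays 1 to 3. That of 23 striatal projection neuron markers was 8.16, 8.33 and 8.22 in methamphetamine and 8.12, 8.13 and 8.74 in saline arrays 1 to 3. By the striatal markers the 6 arrays were cortical in profile, below all striatal arrays (8.79 to 11.98), with saline array 3 nearest to them. By the cortical markers the striatal arrays ranged from 9.14 to 10.61, which reached methamphetamine array 2 and saline array 3. Replicates correlated at 0.941 to 0.955 in methamphetamine and 0.950 to 0.956 in saline arrays 1 to 3, as close as arrays of the 2 groups to each other (0.942 to 0.958). BioB, a control transcript spiked into the hybridisation, was at 9.40 to 10.2 in methamphetamine, 9.35 to 9.85 in saline arrays 1 to 3, and 6.18 to 6.48 in saline arrays 4 and 5. Those last 2 saline arrays also had a higher 3' to 5' ratio of the Gapdh control probe sets (log2 1.02 and 1.20), against 0.325 to 0.585 in methamphetamine and 0.251 to 0.369 in saline arrays 1 to 3. They were given a mean of their own in the fit, and their values stand beside each main result. The 3' to 5' ratio of actin, a measure that rises as RNA shortens, was 3.35, 2.94 and 2.94 in methamphetamine and 2.04, 2.89 and 2.88 in saline arrays 1 to 3, and its part in the results was not tested.

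Several arrays stood apart in ways the labels do not name. Methamphetamine array 1 had a transthyretin (Ttr) signal of 13.1, against 8.70 and 10.3 on methamphetamine arrays 2 and 3, 8.14 to 8.51 on saline arrays 1 to 3 and 8.35 and 9.05 on saline arrays 4 and 5. Transthyretin is made in quantity by the choroid plexus, which lines the ventricles. The mean of all 12 choroid plexus markers on the array, 10 of them under the signal filter, was 6.78, 5.92 and 5.85 in methamphetamine and 5.88, 6.04 and 5.85 in saline arrays 1 to 3. Methamphetamine array 2 had a mean ribosomal protein signal of 13.55, against 12.90 and 12.72 on methamphetamine arrays 1 and 3 and 12.69 to 12.98 on saline arrays 1 to 3. Saline array 1 had the lowest signal of its group for the activity genes Fos, Arc and Egr1. Results that turn on 1 of these arrays are given without it.

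Among the genes tested 3 passed (0.0352%): Gpatch4 and Anxa4 were higher and Elavl1 was lower after methamphetamine. Gpatch4, a nucleolar protein with a G-patch domain, had a signal of 9.24, 9.85 and 9.64 in methamphetamine, against 8.34, 8.86 and 8.27 in saline arrays 1 to 3. The lowest methamphetamine array thus lay above the highest of the 3 saline arrays, with 9.58 ± 0.31 in methamphetamine and 8.49 ± 0.32 in saline (SD, n = 3 each), a log2 difference of 1.09 ± 0.20 (SE, adjusted p = 0.0318). All 4 probe sets of Gpatch4 were higher in methamphetamine, by 0.70 to 1.27. Anxa4, annexin A4, a calcium-dependent binder of membrane phospholipids, had 9.81, 9.84 and 9.81 in methamphetamine and 9.08, 8.86 and 9.29 in saline. Its methamphetamine arrays lay closely together above the saline arrays, with a log2 difference of 0.75 ± 0.13 (adjusted p = 0.0255). The second Anxa4 probe set, which is dimmer, overlapped between groups at 8.01, 8.02 and 8.36 in methamphetamine and 8.06, 7.63 and 8.03 in saline.

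Elavl1 encodes HuR, an RNA-binding protein that attaches to AU-rich elements and steadies the messages that carry them. Its signal was 9.31, 8.55 and 9.46 in methamphetamine, against 10.37, 10.52 and 10.54 in saline arrays 1 to 3. All methamphetamine arrays lay below all saline arrays, and the log2 difference was -1.37 ± 0.24 (adjusted p = 0.0255). Array 2 was the lowest of the methamphetamine group. The 2 other Elavl1 probe sets did not move alike: 1 was at 9.04 to 9.11 in methamphetamine and 9.10 to 9.37 in saline, and the other, dim one at 5.42, 5.19 and 5.01 in methamphetamine and 6.21, 6.26 and 5.91 in saline. The fall therefore belongs to part of the gene's probe sets, and which transcripts each of them reads was not examined.

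**Figure D1:**
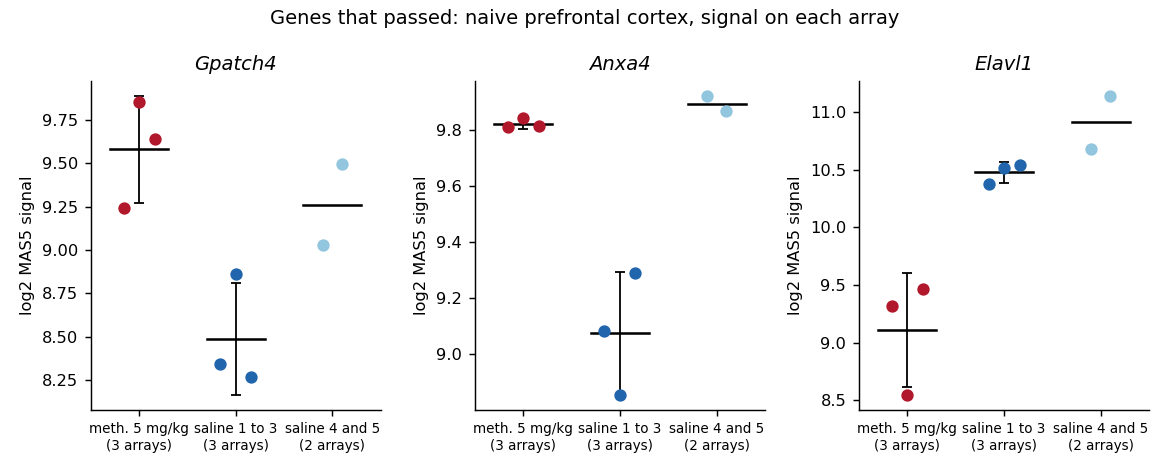
Log2 MAS5 signal of Gpatch4, Anxa4 and Elavl1 on each naive PFC array, with methamphetamine 5 mg/kg at the left, saline arrays 1 to 3 in the middle and saline arrays 4 and 5 at the right; lines are means and bars are SD where n = 3. Saline arrays 4 and 5 lie near the methamphetamine arrays for Gpatch4 and Anxa4, and above all other arrays for Elavl1.

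Saline arrays 4 and 5 had 9.03 and 9.49 for Gpatch4, 9.92 and 9.87 for Anxa4 and 10.68 and 11.14 for Elavl1. With all 5 saline arrays as 1 group, Elavl1 passed (-1.54, adjusted p = 0.00144), while Gpatch4 (0.78, adjusted p = 0.199) and Anxa4 (0.42, adjusted p = 0.501) did not. The 2 other genes that passed in that fit were Clk1 (0.71, adjusted p = 0.0477) and Pnlip (-0.71, adjusted p = 0.0477). Each call also rested on single arrays: without saline array 1 the 3 genes had adjusted p-values of 0.312 (Gpatch4), 0.104 (Anxa4) and 0.104 (Elavl1), and without methamphetamine array 2 of 0.133 (Gpatch4), 0.0994 (Anxa4) and 0.121 (Elavl1). Without methamphetamine array 1 Gpatch4 alone of the 3 passed (adjusted p = 0.0411), and without methamphetamine array 3 Elavl1 alone (adjusted p = 0.0327). The calls also drew on the spread of the other groups: fitted on the 6 arrays alone, each of the 3 genes had an adjusted p of 0.58, and with naive arrays only Gpatch4 and Elavl1 had 0.0932 and Anxa4 0.0494.

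The promoter windows of the 3 genes that passed are shown because these are the genes whose messages moved in opposite directions. They are RefSeq sequences of the rat assembly GRCr8, 250 bases before to 50 bases after the start of the gene, read 5′ to 3′ on the gene's own strand. Capitals mark matches on either strand to CACGTG (the E-box that clock and MYC-type factors bind) and CCAAT (the box bound by NF-Y). TGACGTCA, the cyclic AMP response element, was searched as well.
Gpatch4, chr2:175807512-175807811, plus strand: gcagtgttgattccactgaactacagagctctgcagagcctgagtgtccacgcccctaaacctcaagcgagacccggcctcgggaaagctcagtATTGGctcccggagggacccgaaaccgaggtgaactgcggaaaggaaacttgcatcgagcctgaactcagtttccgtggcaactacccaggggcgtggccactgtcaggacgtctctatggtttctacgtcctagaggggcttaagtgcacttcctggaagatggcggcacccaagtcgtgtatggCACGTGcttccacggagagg
Anxa4, chr4:120798464-120798763, minus strand: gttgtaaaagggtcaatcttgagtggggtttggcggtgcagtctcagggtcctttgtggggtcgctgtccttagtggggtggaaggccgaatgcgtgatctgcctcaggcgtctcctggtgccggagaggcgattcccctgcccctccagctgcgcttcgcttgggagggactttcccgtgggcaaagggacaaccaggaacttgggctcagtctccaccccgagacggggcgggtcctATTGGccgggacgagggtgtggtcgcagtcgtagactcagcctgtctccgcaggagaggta
Elavl1, chr12:7482576-7482875, minus strand: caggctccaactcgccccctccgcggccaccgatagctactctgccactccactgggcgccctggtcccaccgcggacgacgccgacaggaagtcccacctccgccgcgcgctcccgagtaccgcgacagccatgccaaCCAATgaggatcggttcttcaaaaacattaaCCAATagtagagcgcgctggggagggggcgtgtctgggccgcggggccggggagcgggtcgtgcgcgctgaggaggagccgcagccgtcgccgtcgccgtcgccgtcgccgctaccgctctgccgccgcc
Gpatch4 had an E-box from base 31 to base 36 after the start and a reverse CCAAT box from -156 to -152. Anxa4 had a reverse CCAAT box from -11 to -7. The gene that fell, Elavl1, had CCAAT boxes from -111 to -107 and from -80 to -76. None of these 3 windows held TGACGTCA. Of 33469 promoter windows in the table, 37.5% held CCAAT, 6.42% held CACGTG and 1.83% held TGACGTCA, so a CCAAT match is common and no difference between risen and fallen genes is read from it.

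Below the threshold the distribution was broad and symmetric, as the plot of differences against p-values shows. At an unadjusted p under 0.05 there were 717 genes (8.40%), 348 higher (4.08%) and 369 lower (4.33%). All 3 methamphetamine arrays lay above saline arrays 1 to 3 for 460 genes (5.39%) and below them for 504 (5.91%). Only 346 of these 964 genes were also apart from saline arrays 4 and 5, 141 above (1.65%) and 205 below (2.40%). Among the 717 genes, the mean of saline arrays 4 and 5 lay on the methamphetamine side of saline arrays 1 to 3 for 593. Genes picked for their distance from saline arrays 1 to 3 lean to that side by the choice itself, so nothing further is read from this count.

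**Figure D2:**
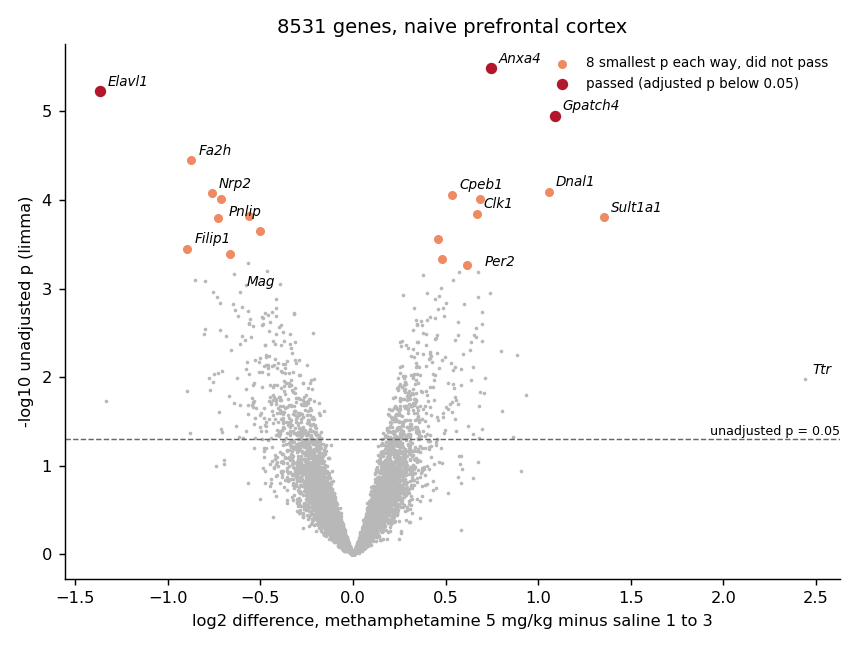
Log2 difference of methamphetamine 5 mg/kg minus saline arrays 1 to 3 (x axis) against -log10 of the unadjusted limma p (y axis) for 8531 genes. The 3 genes that passed are dark red and the 16 nearest genes that did not pass are orange; the dashed line marks an unadjusted p of 0.05, and Ttr, at 13.1 on methamphetamine array 1, lies furthest to the right.

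The nearest genes on the higher side did not pass against saline arrays 1 to 3. Sult1a1, a phenol sulfotransferase, had 9.31, 8.87 and 10.02 in methamphetamine and 8.10, 8.31 and 7.73 in saline arrays 1 to 3 (1.36 ± 0.31, adjusted p = 0.104). These groups were apart, but saline arrays 4 and 5 had 8.96 and 9.49. Dnal1, an axonemal dynein light chain, had 9.63, 8.63 and 9.24 in methamphetamine and 7.86, 8.17 and 8.31 in saline arrays 1 to 3 (1.06 ± 0.23, adjusted p = 0.0934), with 8.32 and 8.89 on saline arrays 4 and 5, which overlap the methamphetamine arrays. Its other, dimmer probe sets overlapped between methamphetamine and saline arrays 1 to 3 (0.45 ± 0.295 and 0.26 ± 0.257). Clk1, a kinase of splicing factors, was above all 5 saline arrays at 11.85, 11.36 and 11.41 in methamphetamine, against 10.69 to 10.97 in saline arrays 1 to 3 and 10.95 and 10.55 in saline arrays 4 and 5 (0.67 ± 0.15, adjusted p = 0.104), and it passed against all 5. Cpeb1, which binds the cytoplasmic polyadenylation element of dormant messages, was at 9.94 to 10.13 in methamphetamine and 9.42, 9.55 and 9.50 in saline (0.53 ± 0.12, adjusted p = 0.0934), with 10.07 and 9.88 on saline arrays 4 and 5. The other 4 of the 8 smallest p-values belonged to Tex30, the phosphatase Ptpn11 (SHP2), Wdr44 and Zfp68, with differences of 0.46 to 0.69.

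The nearest genes on the lower side held apart from more of the saline arrays, and none passed against saline arrays 1 to 3. Fa2h, which hydroxylates the fatty acids of myelin galactolipids, had 8.68, 8.38 and 8.71 in methamphetamine, 9.74, 9.10 and 9.54 in saline arrays 1 to 3 and 9.22 and 8.73 in saline arrays 4 and 5 (-0.87 ± 0.18, adjusted p = 0.0760). Nrp2, a receptor of class 3 semaphorins, had 7.79, 7.83 and 7.76 in methamphetamine and 8.45, 8.76 and 8.45 in saline arrays 1 to 3 (-0.76 ± 0.17, adjusted p = 0.0934), with 7.98 and 8.18 on saline arrays 4 and 5. Pnlip, pancreatic lipase, had 8.11, 8.38 and 8.11 in methamphetamine and 9.19, 8.79 and 8.76 in saline arrays 1 to 3 (-0.71 ± 0.16, adjusted p = 0.0934), and it passed against all 5 saline arrays. Usp31, Slc35f4, the cortical patterning factor Nr2f1 (COUP-TFI) and the basement membrane collagen Col4a5 were likewise below all 5 saline arrays, by 0.50 to 0.73 against saline arrays 1 to 3. Filip1 (-0.90 ± 0.22) overlapped saline arrays 4 and 5.

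Genes of neuronal activity, the clock and transmitter systems were read as a set whatever their p. Fos, the classic immediate early gene, had 10.82, 10.52 and 10.78 in methamphetamine and 9.50, 11.21 and 11.28 in saline arrays 1 to 3, so the methamphetamine arrays fell inside a wide saline range (0.05 ± 0.40). Arc (0.59 ± 0.36), Egr1 (0.25 ± 0.22), Nr4a1 (0.08 ± 0.23) and Bdnf (0.16 ± 0.19) overlapped too. Without saline array 1 the difference was -0.54 for Fos, 0.18 for Arc and -0.05 for Egr1. Of 27 activity genes tested, 1 was higher (Nr4a3, 0.67 ± 0.21) and 2 were lower (Gadd45g, -0.65 ± 0.18, and the phosphatase Dusp1, -0.49 ± 0.24) at an unadjusted p under 0.05, and the median of the 27 was 0.08. Over all genes 4.08% were higher and 4.33% lower at that p. Nr4a3 had 9.69, 9.59 and 9.86 in methamphetamine and 8.54, 8.82 and 9.79 in saline arrays 1 to 3, so the groups overlapped, and saline array 1 was again the lowest. Per2, a repressor in the clock that glucocorticoids also induce, had 10.90, 10.49 and 10.86 in methamphetamine, 9.75, 10.22 and 10.27 in saline arrays 1 to 3 and 10.03 and 9.99 in saline arrays 4 and 5. It lay above all 5 saline arrays and did not pass (0.67 ± 0.18, adjusted p = 0.237). The other clock genes read, Per1 (-0.05 ± 0.15), Dbp (0.02 ± 0.14) and Nr1d2 (0.06 ± 0.08), overlapped saline arrays 1 to 3. Dbp had 10.57, 10.38 and 10.61 in methamphetamine, 10.52, 10.47 and 10.51 in saline arrays 1 to 3 and 9.77 and 9.68 in saline arrays 4 and 5, and against all 5 the difference was 0.33 (adjusted p = 0.632). The 19 clock genes had a median of 0.02.

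Dopamine and peptide genes were read next, and none passed. Drd1, the D1 receptor, had 8.68, 9.20 and 8.90 in methamphetamine and 8.72, 8.62 and 9.52 in saline arrays 1 to 3 (-0.03 ± 0.24). Ddc, the enzyme that makes dopamine from L-DOPA, was below all 5 saline arrays at 7.40, 7.25 and 7.09 in methamphetamine, against 8.16, 7.92 and 7.81 in saline arrays 1 to 3 and 7.94 and 7.84 in saline arrays 4 and 5 (-0.72 ± 0.20, adjusted p = 0.278). The second Ddc probe set, a dim one, leaned the other way and overlapped. It had 5.65, 5.59 and 4.13 in methamphetamine and 2.94, 4.56 and 4.05 in saline arrays 1 to 3 (1.275 ± 0.81). The opioid peptide genes Penk (-0.20 ± 0.22) and Pdyn (-0.15 ± 0.23) overlapped, and none of 18 neuropeptide genes reached an unadjusted p under 0.05. The neuronal markers Slc17a7 (-0.14 ± 0.16), Gad1 (-0.06 ± 0.14) and Pvalb (0.10 ± 0.15) overlapped as well. Th was under the signal filter. None of 30 glutamate receptor and postsynaptic genes, 16 GABA genes or 33 voltage-gated channels reached an unadjusted p under 0.05, with medians of -0.02, -0.05 and 0.03.

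Myelin genes were mostly lower after methamphetamine, although no member of any list passed over all genes. Of 29 oligodendrocyte and myelin markers tested, 11 were lower and 1 higher at an unadjusted p under 0.05, 13 lay wholly below and 1 wholly above saline arrays 1 to 3, and their median was -0.27, beside 0.0006 over all genes. Over all genes 4.33% were lower and 4.08% higher at that p, and 5.91% lay wholly below and 5.39% wholly above. Mag, a myelin adhesion protein, had 10.21, 9.96 and 10.59 in methamphetamine, 10.92, 10.71 and 10.96 in saline arrays 1 to 3 and 10.77 and 10.61 in saline arrays 4 and 5 (-0.61 ± 0.17, adjusted p = 0.275). It lay below all 5 saline arrays, as did Gpr37 (-0.46 ± 0.12), Adamts4 (-0.56 ± 0.17) and Fa2h. Ugt8 (-0.73) and Gal3st1 (-0.52), which like Fa2h build galactolipids and sulfatide, were among the 11, and so were Mog, Mal, Opalin, Pllp and Enpp2. The higher one was Cryab (0.56), a small heat shock protein. Mbp, myelin basic protein, overlapped by its brightest probe set, with 14.53, 14.95 and 14.19 in methamphetamine and 14.55, 14.33 and 14.23 in saline (0.19 ± 0.18), highest on methamphetamine array 2. Its other probe sets differed by -0.32 ± 0.25 and 0.02 ± 0.11. The count of lower members was 7 without methamphetamine array 3, 6 without saline array 1, 10 without methamphetamine array 2 and 11 against all 5 saline arrays. The mean of all 33 such markers on the array was 10.35, 10.39 and 10.24 in methamphetamine. It was 10.73, 10.45 and 10.51 in saline arrays 1 to 3 and 10.49 and 10.32 in saline arrays 4 and 5. By this mean the groups were apart for saline arrays 1 to 3 and overlapped saline array 5. Nfasc, which holds axoglial junctions, was also below all 5 saline arrays (-0.55 ± 0.17, adjusted p = 0.296). Its other probe sets, from -0.35 to 0.22, did not reach an unadjusted p under 0.05.

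**Figure D3:**
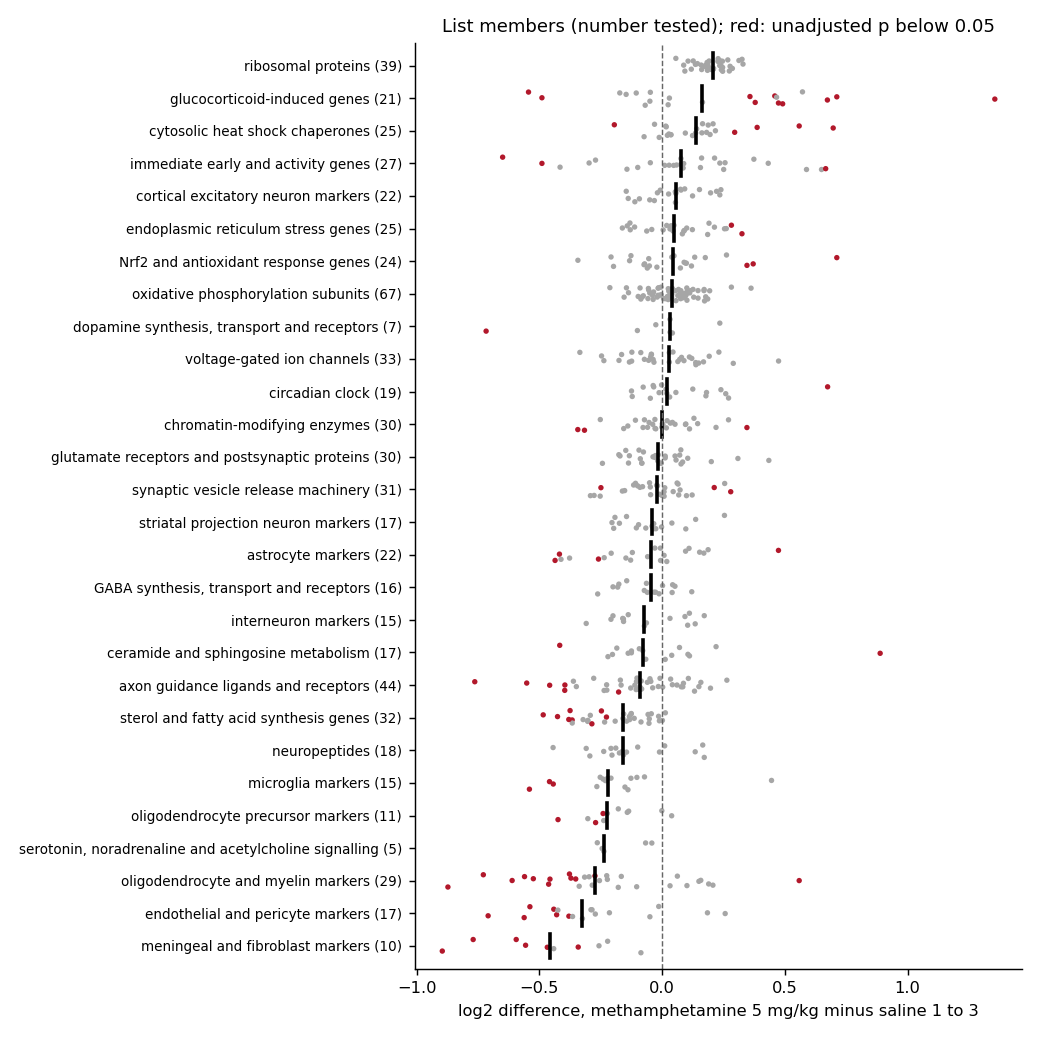
Log2 difference of methamphetamine 5 mg/kg minus saline arrays 1 to 3 (x axis) for each tested member of the gene lists, 1 row per list of at least 5 tested members; bars are list medians, red points have an unadjusted p under 0.05, and the dashed line is the median of all genes. Meningeal, endothelial and myelin lists lie furthest to the left, and ribosomal proteins furthest to the right.

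Markers of vessels and membranes were lower in parallel, beside 4.33% of all genes lower at an unadjusted p under 0.05. Of 10 meningeal and fibroblast markers tested, all 10 lay below 0 and 6 had an unadjusted p under 0.05, among them the matrix proteins Bgn (-0.56 ± 0.17) and Vtn (-0.47 ± 0.21) and the growth factor genes Igf2 (-0.90 ± 0.34) and Igfbp2 (-0.77 ± 0.29). The mean of all 24 such markers was 7.40, 7.57 and 7.53 in methamphetamine and 8.10, 7.68 and 7.98 in saline arrays 1 to 3, but 7.34 and 7.29 in saline arrays 4 and 5, below the methamphetamine arrays. Against all 5 saline arrays 1 of the 10 kept an unadjusted p under 0.05, and without saline array 1 likewise 1. Of 17 endothelial and pericyte markers 6 were lower, including the VEGF receptor Kdr (-0.71 ± 0.25) and the thyroxine transporter Slco1c1 (-0.56 ± 0.20), both below all 5 saline arrays. The mean of all 27 such markers was 8.11, 7.67 and 7.94 in methamphetamine and 8.28, 8.26 and 8.17 in saline arrays 1 to 3. On saline arrays 4 and 5 it was 7.94 and 7.98, within the methamphetamine range. Against all 5 saline arrays the median of the 17 was -0.24. Only 1 of the 17 was lower without methamphetamine array 2, and their median moved to -0.19, against -0.33 with all arrays. The part of tissue composition in the other results was not tested.

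Other glial lists leaned the same way with fewer members, beside 4.33% of all genes lower at an unadjusted p under 0.05. Of 11 oligodendrocyte precursor markers 3 were lower, and of 15 microglia markers 3 were lower, at an unadjusted p under 0.05, with medians of -0.22 each. The microglial receptor P2ry12 had 10.21, 10.06 and 9.91 in methamphetamine and 10.77, 10.60 and 10.19 in saline arrays 1 to 3 (-0.46 ± 0.16). Against all 5 saline arrays the microglia median was -0.04, and without saline array 1 none of the 15 was lower. The 22 astrocyte markers had a median of -0.04, with the glutamate transporter Slc1a2 (-0.42 ± 0.13) below all 5 saline arrays and the gap junction gene Gjb6 (0.47 ± 0.13) above saline arrays 1 to 3. The second Slc1a2 probe set (-0.14 ± 0.14) overlapped saline arrays 1 to 3. Gfap had 10.96, 11.70 and 10.78 in methamphetamine and 11.77, 11.55 and 11.35 in saline, and overlapped.

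Sterol and fatty acid synthesis genes were low across nearly the whole list. Of 32 tested, 30 had a difference below 0, 8 were lower and 0 higher at an unadjusted p under 0.05 (4.33% and 4.08% over all genes), and the median was -0.16. The mean of the 32 genes was 10.20, 10.19 and 10.14 in methamphetamine, 10.42, 10.37 and 10.31 in saline arrays 1 to 3 and 10.27 and 10.17 in saline arrays 4 and 5, so the groups were apart for saline arrays 1 to 3 and overlapped saline array 5. Dhcr7, the last step of cholesterol synthesis in one of its branches, had 9.29, 9.35 and 9.47 in methamphetamine and 9.76, 9.89 and 9.91 in saline arrays 1 to 3 (-0.48 ± 0.14, adjusted p = 0.278). It lay below all 5 saline arrays. Idi1 (-0.38 ± 0.12), Sqle (-0.37 ± 0.13) and Ebp (-0.38 ± 0.13), which act on isoprenoid and sterol intermediates, followed by p. Leaving out any 1 array gave 5 to 9 lower members, and all 5 saline arrays gave 6. The part of the myelin markers in this list's level was not tested; oligodendrocytes are known as heavy makers of cholesterol.

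These members lay low together, so the promoter windows of 3 of the 4 smallest p-values are shown; the table held a single window for each. SREBP factors, which switch on sterol genes when cholesterol is short, are known to bind beside NF-Y, and capitals mark CCAAT on either strand. The sterol element TCACNCCAC was searched with it, also on both strands.
Dhcr7, chr1:208444184-208444483, plus strand: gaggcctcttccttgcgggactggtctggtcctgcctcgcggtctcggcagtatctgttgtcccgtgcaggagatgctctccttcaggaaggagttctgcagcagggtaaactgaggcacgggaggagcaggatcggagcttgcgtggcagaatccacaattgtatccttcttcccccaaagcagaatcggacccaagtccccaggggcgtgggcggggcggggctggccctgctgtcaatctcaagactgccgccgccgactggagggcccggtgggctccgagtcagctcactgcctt
Idi1, chr17:66547475-66547774, minus strand: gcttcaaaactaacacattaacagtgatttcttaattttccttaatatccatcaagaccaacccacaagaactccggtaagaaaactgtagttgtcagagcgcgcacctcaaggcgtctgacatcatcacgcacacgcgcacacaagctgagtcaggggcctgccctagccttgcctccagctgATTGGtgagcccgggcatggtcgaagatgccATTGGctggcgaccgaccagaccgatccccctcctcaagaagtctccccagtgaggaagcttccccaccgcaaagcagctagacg
Ebp, chrX:16971212-16971511, plus strand: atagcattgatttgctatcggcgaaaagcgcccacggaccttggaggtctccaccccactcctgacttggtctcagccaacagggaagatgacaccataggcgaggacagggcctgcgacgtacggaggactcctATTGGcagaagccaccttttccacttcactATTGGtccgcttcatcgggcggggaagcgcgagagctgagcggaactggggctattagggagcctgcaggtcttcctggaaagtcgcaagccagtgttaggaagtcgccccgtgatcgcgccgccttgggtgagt
Idi1 had reverse CCAAT boxes from -66 to -62 and from -35 to -31, and Ebp from -115 to -111 and from -85 to -81. In Dhcr7 neither motif was found. Of the 32 genes 25 had a window, and 19 of those 25 held CCAAT, against 37.5% of all windows. Lists that did not fall also held it often: 11 of 16 clock, 11 of 21 heat shock chaperone and 10 of 20 glucocorticoid-induced windows. Myelin markers held it in 6 of 19 windows and ribosomal proteins in 8 of 35. No link between CCAAT and the lower sterol signal is read from these counts. None of the 25 sterol gene windows held TCACNCCAC, which 1.12% of all windows held. Degenerate forms of that element were not searched.

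Genes that glucocorticoids induce leaned higher, with members on both sides. Of 21 tested, 8 were higher and 2 lower at an unadjusted p under 0.05 (4.08% and 4.33% over all genes). Wholly above saline arrays 1 to 3 lay 8 (5.39% over all genes), and the median was 0.16. Tsc22d3, the glucocorticoid-induced leucine zipper GILZ, was above all 5 saline arrays at 11.79, 11.94 and 11.83 in methamphetamine, against 11.27, 11.61 and 11.30 in saline arrays 1 to 3 and 11.53 and 11.57 in saline arrays 4 and 5 (0.46 ± 0.13, adjusted p = 0.278). Fkbp5, a co-chaperone of the glucocorticoid receptor, had 9.36, 9.50 and 9.97 in methamphetamine and 8.88, 9.05 and 8.88 in saline arrays 1 to 3 (0.67 ± 0.19), and 9.17 and 9.81 on saline arrays 4 and 5. Sult1a1, Gjb6, Klf15, Mt2A, Mertk and Cdkn1a were the other higher members, while the angiopoietin-like Angptl4 (-0.54 ± 0.22) and Dusp1 were the lower ones. Sgk1, another textbook target, had 10.87, 10.89 and 10.57 in methamphetamine, 10.07, 10.52 and 10.34 in saline arrays 1 to 3 and 11.88 and 12.17 in saline arrays 4 and 5. Saline arrays 4 and 5 exceeded saline arrays 1 to 3 by a median of 0.56 over the list, and against all 5 saline arrays the median was -0.08, with 3 members higher and 3 lower.

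Among chaperones of the cytosol no member passed. Of 25 tested, 21 had a difference above 0, 4 were higher and 1 lower at an unadjusted p under 0.05 (over all genes 4.08% were higher and 4.33% lower), and the median was 0.14. The mean of all 27 on the array was 10.56, 10.50 and 10.74 in methamphetamine and 10.44, 10.42 and 10.44 in saline arrays 1 to 3. It was 10.52 on each of saline arrays 4 and 5, within the methamphetamine range. Against all 5 saline arrays the median was 0.08. Bag3, a co-chaperone of selective autophagy, had 8.34, 8.22 and 8.31 in methamphetamine and 7.86, 7.62 and 7.30 in saline arrays 1 to 3 (0.70 ± 0.22, adjusted p = 0.301), with 8.40 and 7.97 on saline arrays 4 and 5. The small heat shock proteins Cryab (0.56 ± 0.22) and Hspb8 (0.39 ± 0.17) and the DnaJ protein Dnajb4 (0.30 ± 0.11) were the other higher members. Among Nrf2 and antioxidant genes 3 of 24 were higher at an unadjusted p under 0.05, beside the same 4.08% of all genes, and the median of the 24 was 0.04. The higher ones included Gclc, which makes glutathione precursors, at 9.68, 9.38 and 9.60 in methamphetamine and 9.09, 9.23 and 9.23 in saline arrays 1 to 3 (0.37 ± 0.11). The second Gclc probe set differed by -0.001 ± 0.17. In ceramide metabolism the alkaline ceramidase Acer2 was above all 5 saline arrays, with 8.84, 8.35 and 8.35 in methamphetamine, 7.73, 7.96 and 7.18 in saline arrays 1 to 3 and 8.11 and 8.28 in saline arrays 4 and 5 (0.89 ± 0.30, adjusted p = 0.347). Cers2, which makes very long ceramides, was lower (-0.42 ± 0.12, adjusted p = 0.277), and neither passed.

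**Figure D4:**
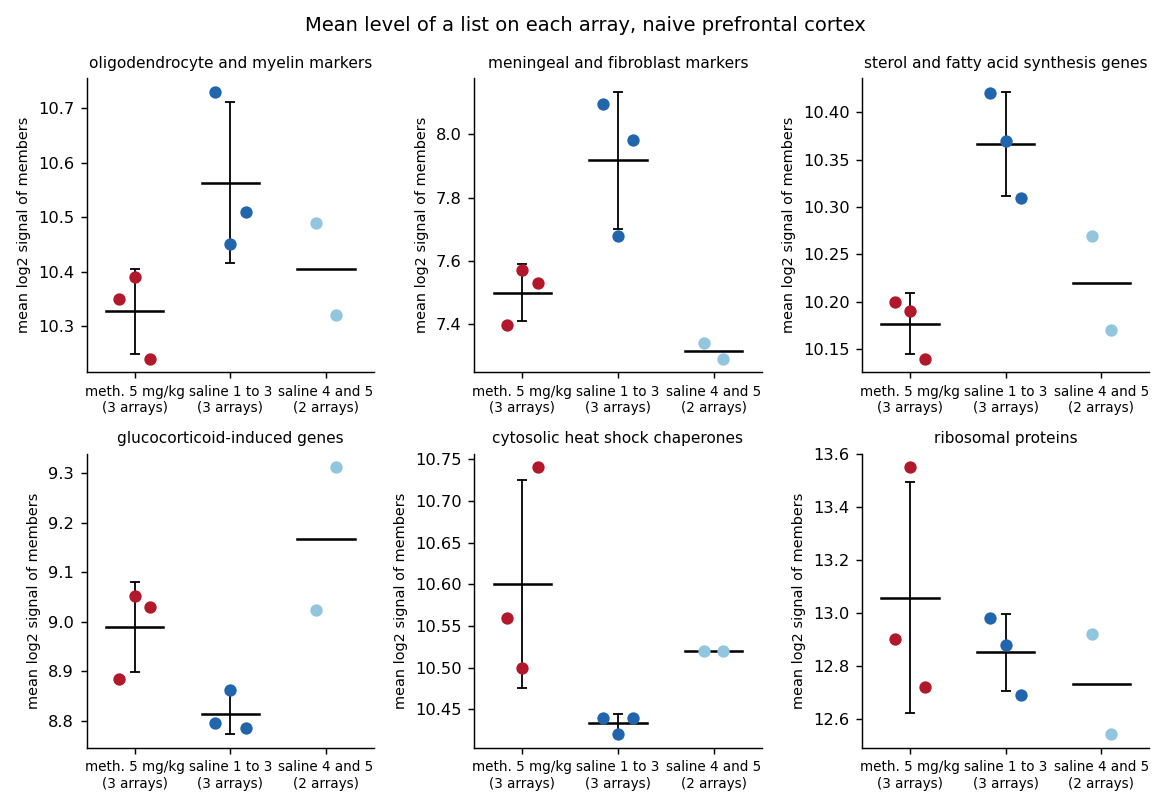
Mean log2 signal of all members of 6 gene lists named on the array, tested or not, on each naive PFC array, with methamphetamine 5 mg/kg at the left of each panel, saline arrays 1 to 3 in the middle and saline arrays 4 and 5 at the right; lines are means and bars are SD where n = 3. Methamphetamine array 2 alone carries the high ribosomal level of 13.55.

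Ribosomal proteins moved with 1 array. All 39 tested had a difference above 0, with a median of 0.21, and none had an unadjusted p under 0.05. Without methamphetamine array 2 the median was -0.07 and 32 of the 39 were below 0. Rpl5 shows the pattern, with 13.97, 14.38 and 13.65 in methamphetamine and 13.85, 13.60 and 13.56 in saline arrays 1 to 3. The same array had the lowest mean signal of the 6 for vesicle release genes (9.24, against 9.55 and 9.66 on methamphetamine arrays 1 and 3 and 9.50 to 9.57 on saline arrays 1 to 3) and axon guidance genes (8.42, against 8.85 and 8.84, and 8.78 to 8.85). Axon guidance genes, 6 of 44 lower at an unadjusted p under 0.05 (4.33% over all genes) with a median of -0.09, had 2 lower and 3 higher without it.

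At 1.25 mg/kg the prefrontal cortex had 2 arrays, and 5 mg/kg was higher for the 2 genes that differed between doses (0.0234%, with 1474 genes or 17.3% at an unadjusted p under 0.05). Ank3, ankyrin-G of the axon initial segment, had 11.82, 11.85 and 11.88 in saline arrays 1 to 3, 10.92 and 11.06 at 1.25 mg/kg and 12.02, 11.38 and 11.90 at 5 mg/kg (5 minus 1.25 mg/kg 0.78 ± 0.14, adjusted p = 0.0424). Aplp1, of the amyloid precursor family, had 10.47, 10.20 and 10.54 in saline, 9.77 and 10.04 at 1.25 mg/kg and 10.58, 10.34 and 10.90 at 5 mg/kg (0.71 ± 0.13, adjusted p = 0.0424). Neither gene passed with naive arrays only (adjusted p = 0.114 for Ank3 and 0.179 for Aplp1) or with the replicate block (0.0709 for each). For both genes the lower dose lay below saline and below 5 mg/kg. Methamphetamine array 2 at 5 mg/kg lay nearest to the lower dose for Ank3 and shared its ribosomal signal (13.81 and 13.28 at 1.25 mg/kg). Without it 1621 genes differed between doses, and without array 1 or array 3 of the 5 mg/kg group 0 genes did (677 and 588 at an unadjusted p under 0.05). Without 1.25 mg/kg array 2 the count was 214, and without array 1 it was 1.

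Against the same saline arrays 1 to 3, methamphetamine 1.25 mg/kg gave 417 genes that passed (4.89%), 177 higher and 240 lower. The doses share those saline arrays, so their values are only set side by side. The log2 difference from saline for Gpatch4 was 1.25 at 1.25 mg/kg and 1.09 at 5 mg/kg, for Anxa4 0.56 at 1.25 mg/kg and 0.75 at 5 mg/kg, and for Elavl1 -1.88 at 1.25 mg/kg and -1.37 at 5 mg/kg. The difference between doses was -0.16 for Gpatch4 (95% interval -0.62 to 0.31), 0.18 for Anxa4 (-0.11 to 0.48) and 0.51 for Elavl1 (-0.05 to 1.07), none of which passed.

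Amphetamine and methylphenidate were tested as further stimulants at a conditioning dose of 5 mg/kg, and 2 pairs were compared. Methamphetamine differs from amphetamine by a methyl group on the nitrogen, and both were infused at 0.1 mg/kg. The amphetamine and methylphenidate arrays at 5 mg/kg had the low BioB signal of saline arrays 4 and 5 (5.96 to 6.61). Their difference from saline arrays 4 and 5 was therefore subtracted from that of methamphetamine from saline arrays 1 to 3. Amphetamine 5 mg/kg and that BioB split cannot be told apart in the raw levels. Against saline arrays 4 and 5, amphetamine gave 1 gene that passed and 397 (4.65%) at an unadjusted p under 0.05, and methylphenidate 2 and 385 (4.51%). Between methamphetamine and amphetamine 5 genes differed (0.0586%, with 579 or 6.79% at an unadjusted p under 0.05), of which 4 also passed when p-values were adjusted over both pairs. Gpatch4 was higher for methamphetamine by 1.61 ± 0.30 (95% interval 0.99 to 2.24, adjusted p = 0.0290), as its own difference was 1.09 for methamphetamine and -0.52 for amphetamine. Gjb6, connexin 30 (1.19 ± 0.19, adjusted p = 0.00579), Gpd1, a glycerol-3-phosphate dehydrogenase (1.63 ± 0.30, adjusted p = 0.0290) and Tiparp, an ADP-ribosyltransferase induced through the dioxin receptor (1.15 ± 0.22, adjusted p = 0.0315, and 0.0525 over both pairs) were higher as well. The naive PFC also had 3 arrays of amphetamine 1.25 mg/kg, with BioB at 9.63 to 9.89, near saline arrays 1 to 3. Gpatch4 was at 9.50 to 9.78 on them, above saline arrays 1 to 3 (8.27 to 8.86) and overlapping methamphetamine 5 mg/kg (9.24 to 9.85). The Gpatch4 difference from amphetamine is thus given for 5 mg/kg only, and the lower dose was not tested.

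Hbb, a globin gene of red cells, was the 1 gene lower for methamphetamine, by -3.26 ± 0.53 (adjusted p = 0.00579). Its raw levels do not differ in that way: they were 13.44, 13.51 and 12.14 in methamphetamine, 12.97 to 13.31 in amphetamine, 12.10 to 13.77 in saline arrays 1 to 3 and 10.19 and 9.22 in saline arrays 4 and 5. With all 5 saline arrays as the saline group of both stimulants, the saline term cancels. That fit therefore compared raw methamphetamine and amphetamine levels, and the BioB split stays in it. The difference there was -0.08 (adjusted p = 0.957). For the other 4 genes the mean of saline arrays 4 and 5 lay above that of saline arrays 1 to 3, opposite to Hbb. In the comparison of raw levels none of the 5 passed, although 124 other genes did. Without saline array 5, 0 of all genes passed (510 at an unadjusted p under 0.05). The 3 compounds were not shown to act alike on the other genes that passed above: the difference from amphetamine was -1.60 for Elavl1 (-2.35 to -0.85, adjusted p = 0.116) and 0.94 for Anxa4 (0.55 to 1.33, adjusted p = 0.0570). Methylphenidate was infused at 0.25 mg in 0.1 ml, so infused doses differ. Hbb alone differed from it (0.0117%, with 525 genes or 6.15% at an unadjusted p under 0.05), by -3.60 ± 0.53 (adjusted p = 0.00222). In raw levels, which the fit with all 5 saline arrays again compared, the difference was -0.42 (adjusted p = 0.756).

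In the striatum of the same cohort, methamphetamine 5 mg/kg against saline arrays 1 to 3 gave 153 genes that passed (1.79%), 91 higher and 62 lower. The description of striatal saline array 1 names the PFC, against its title and tissue, and its striatal projection neuron markers averaged 11.98, beside 11.87 and 11.69 on striatal saline arrays 2 and 3, so the title was followed. Cortical excitatory markers averaged 9.67 to 9.90 on the striatal methamphetamine arrays and 9.27 to 9.37 on the striatal saline arrays, and the part of this difference in the striatal values was not tested. Elavl1 was among them, with 9.11 to 9.38 in methamphetamine and 10.47 to 10.72 in saline (-1.34, adjusted p = 0.0134), beside -1.37 in the PFC. Gpatch4 was 0.87 higher there (adjusted p = 0.0698) and Anxa4 0.23 (adjusted p = 0.563). Fa2h (-1.03, adjusted p = 0.00302), Pnlip (-0.78, adjusted p = 0.00835), Cpeb1 (0.87, adjusted p = 0.0174), Sult1a1 (1.91, adjusted p = 0.0238) and Per2 (0.90, adjusted p = 0.0141) passed in the striatum and did not in the PFC. The difference between regions itself passed for 0 genes in limma, with 333 (3.90%) at an unadjusted p under 0.05 and a smallest adjusted p of 0.940. Its interval was -0.88 to 0.82 for Elavl1, -0.52 to 0.97 for Gpatch4, 0.01 to 1.02 for Anxa4 and -0.41 to 0.72 for Fa2h. By list median, the myelin markers were at -0.27 in the PFC and -0.39 in the striatum, and the sterol genes at -0.16 and -0.32. The smallest p-values of the region difference belonged to Gnai2 (0.65), Ppfia1 (0.56) and Luzp2 (0.82) on the PFC side and Ikbip (-0.76), Wdr18 (-0.55) and the chaperone Dnajb1 (-0.53) on the striatal side.

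In the second cohort, rats had received methamphetamine at 5 mg/kg 2 times a day for 7 days before conditioning, and cohort and pretreatment cannot be told apart. In their PFC 2 genes passed (0.0234%), the clock genes Nr1d2 and Dbp, and 351 (4.11%) had an unadjusted p under 0.05. The 3 genes of the naive PFC overlapped their own saline group there. Elavl1 was at 10.64 to 10.85 in methamphetamine and 10.27 to 10.97 in saline (0.16), and Gpatch4 at 8.67 to 9.10 and 8.43 to 8.74 (0.26). Anxa4 was at 9.89 to 10.14 in methamphetamine and 9.74 to 10.11 in saline (0.03). Pretreated saline was thus near naive methamphetamine for Anxa4 (9.81 to 9.84) and above naive saline arrays 1 to 3 (8.86 to 9.29). The part of that saline level in the cohort difference was not tested. The naive minus pretreated difference passed for 0 genes in limma, with 395 (4.63%) at an unadjusted p under 0.05. It was -1.53 for Elavl1 (-2.23 to -0.82, adjusted p = 0.239), 0.83 for Gpatch4 (0.24 to 1.42) and 0.72 for Anxa4 (0.35 to 1.09, adjusted p = 0.385). Dnal1 (1.47 ± 0.32) and Dazap1 (1.17 ± 0.29) lay furthest by p on the naive side with Anxa4, and Nr1d2 (-0.51 ± 0.11), Angptl4 (-1.40 ± 0.31) and Slc35f4 (-1.05 ± 0.24) on the other. Per2 had a log2 difference from saline of 0.67 in naive and 0.73 in pretreated rats, and the interval of their difference was -0.57 to 0.45.

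**Figure D5:**
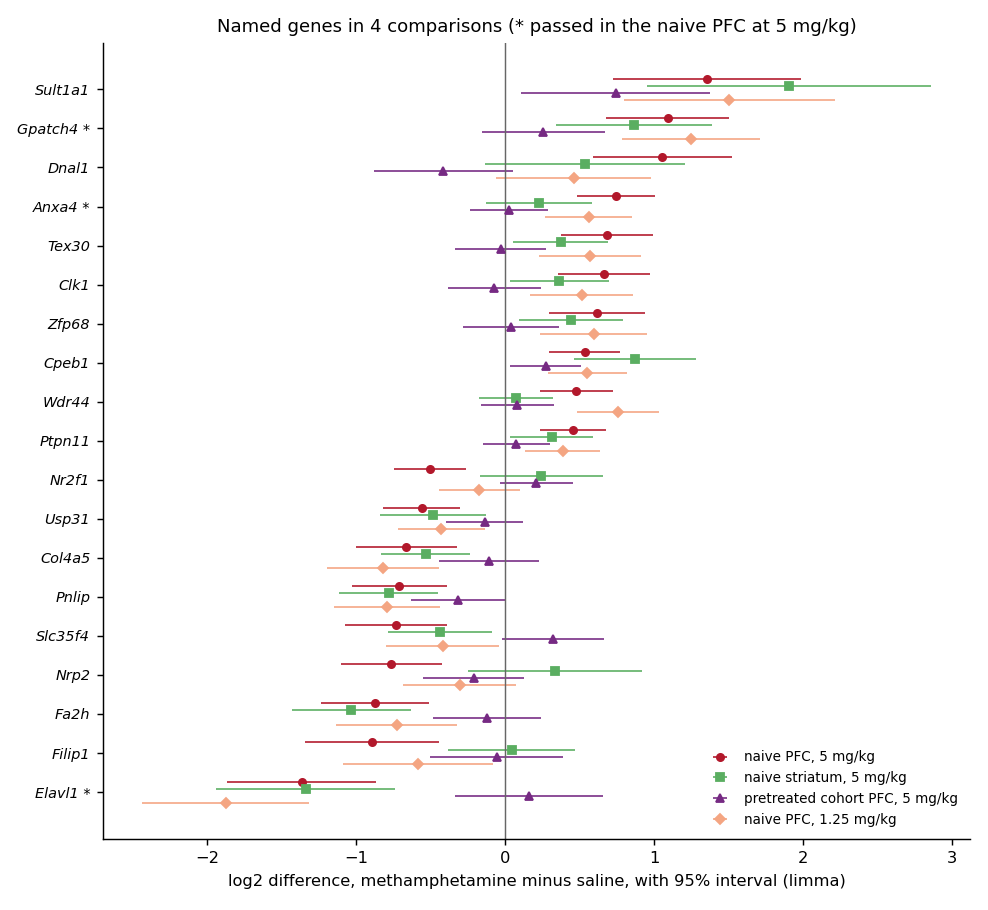
Log2 difference of methamphetamine minus saline with its 95% limma interval (x axis) for the 3 genes that passed (starred) and the 16 nearest, in the naive PFC at 5 mg/kg, naive striatum, pretreated cohort PFC and naive PFC at 1.25 mg/kg. Elavl1 lies below -1 in the 3 naive comparisons and at 0.16 in the pretreated cohort; the 2 naive PFC comparisons share their saline arrays.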

How the data were processed

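Gene expression was measured on 63 Affymetrix rat arrays. The linear intensity values per probe set were computed by the authors with MAS5 before they were deposited, as the submitters' processing notes name it without a version. Each array was scaled to a common target (mean trimmed by 2% per end, 500.1 to 500.2 on all arrays), so a change in total RNA cannot be seen. The median signal was 133.1 to 142.7 on the methamphetamine arrays and 136.4 to 143.4 on saline arrays 1 to 3; the number of arrays limits the precision.

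Signals under 1 (18232 values) were set to 1 and log2 was taken. Of 31099 probe sets the platform annotation gives 1 gene to 20832, several to 436 and none to 9831. Each of 14218 genes was represented by its brightest probe set, and the dimmest 40% of genes by PFC mean were left out. limma 3.58.1 in R 4.3.3 (lmFit, contrasts, eBayes with trend) was fitted with 1 mean per group, 20 residual degrees of freedom, and was tested on simulated data. The Benjamini-Hochberg adjustment ran over 8531 genes. Region contrasts used all 63 arrays. The methods' own tests are not given in the sources used here. Amphetamine and methylphenidate were compared through saline arrays 4 and 5.

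The text names the genes that passed, the 8 smallest p-values in a direction with fewer than 5, a fixed set of activity, clock, transmitter and glial genes, up to 4 genes per list and a few per further comparison; other list members were named after their values were seen. Members, lists (30, of 1049 entries) and tests were chosen with earlier results of these data known. A list is described by counts and medians, with no test of the list. Same-numbered arrays of the groups deviated together at r = -0.153, 0.0105 and 0.333, so the numbers do not pair them. Alternatives were quantile normalization, an added constant, other filters, all probe sets, other fits and leaving out arrays. Promoter windows came from RefSeq (GRCr8).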

Additional observations from a re-analysis of the deposited data

Results flagged for a closer look

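In all, 6 results were marked for a closer look because the effect of methamphetamine differed from that of another stimulant in a direct test of the difference. Against amphetamine, the log2 difference of effects was 1.63 for Gpd1, 1.61 for Gpatch4, 1.19 for Gjb6, 1.15 for Tiparp and -3.26 for Hbb. Against methylphenidate it was -3.60 for Hbb. In each case saline arrays 4 and 5 stood away from saline arrays 1 to 3: they averaged 11.58 for Gpd1, 9.26 for Gpatch4, 11.36 for Gjb6, 9.43 for Tiparp and 9.71 for Hbb, against 10.35, 8.49, 10.47, 8.85 and 12.89 in saline arrays 1 to 3 for the same genes. The part of that saline difference in the results was not tested. With all 5 saline arrays as 1 group the saline term cancels, so that fit compared raw stimulant levels. None of the 6 passed in it.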

How the results depend on the processing

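The count of 3 genes for methamphetamine 5 mg/kg against saline was 6 with no filter on dim genes, 1 with naive arrays only, 0 with only the 6 arrays (429 at an unadjusted p under 0.05) and 77 with array weights, where methamphetamine array 2 had a weight of 0.189; leaving out 1 array gave 0 to 4. Gpatch4, Anxa4 and Elavl1 kept their direction in all 18 alternatives and passed in 11 each, with adjusted p-values of 0.0235 to 0.58, 0.00211 to 0.58 and 0.00144 to 0.58. Between doses the count was 6 with quantile normalization, 6 with no filter, 4 with 60% of genes left out, 5 without the trend, 0 with naive arrays only and 0 with the replicate block (1477 and 1191 at an unadjusted p under 0.05), and 0 to 1621 without 1 array. Against amphetamine it was 2 with naive arrays only, 8 with the replicate block and 124 with all 5 saline arrays, and 0 to 8 without 1 array; against methylphenidate 2 with no filter, 2 with all probe sets, 0 with naive arrays only (522 at an unadjusted p under 0.05), 2 with the replicate block and 158 with all 5 saline arrays, and 0 to 3 without 1 array. The counts of 124 and 158 compare raw stimulant levels, because the saline term cancels in that fit. The region difference stayed at 0 in each alternative run, and the cohort difference at 0 except 1 without methamphetamine array 2 or 3. The replicate block gave 4 genes in the main comparison, and whether the numbers pair the arrays is not settled. Leaving out arrays of the 1.25 mg/kg, amphetamine and methylphenidate groups was chosen after seeing the data.

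Genes that did not pass changed sign in places: Fos -0.168 and Pdyn 0.0778 with array weights, Sgk1 -0.22 and Drd1 0.0218 with all 5 saline arrays. Without 1 array, differences ranged as follows: Fos -0.535 to 0.356, Egr1 -0.0516 to 0.516, Nr4a1 -0.172 to 0.353, Per1 -0.145 to 0.0115, Dbp -0.028 to 0.0899, Nr1d2 -0.00476 to 0.101, Drd1 -0.193 to 0.259, Slc17a7 -0.336 to 0.00808, Gad1 -0.22 to 0.0765, Mbp -0.00527 to 0.372, Hbb -0.249 to 0.589, Bdnf -0.033 to 0.347. The cause was not tested. List medians below 0 for myelin (-0.34 to -0.178), meningeal (-0.524 to -0.295), endothelial (-0.457 to -0.15) and sterol genes (-0.234 to -0.12) kept their sign in all 18 alternatives. So did the medians below 0 of microglia, oligodendrocyte precursor, neuropeptide and serotonin, noradrenaline and acetylcholine genes. The medians above 0 of cortical excitatory, heat shock chaperone and endoplasmic reticulum stress genes kept theirs too. The alternatives share most of their arrays, so a kept sign does not set a list apart.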
